A study of Arabidopsis thaliana with 12 samples.

Results

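The genes described here are the neighbours of CYP18-1 (AT1G01940), the gene mutated in the atcyp18-1 line, at the top end of Arabidopsis chromosome 1. They were chosen by gene ID alone, from AT1G01010 to AT1G02960, leaving out CYP18-1 itself, AT1G01060, AT1G02780 and AT1G02840, and they make up 188 of the 23337 genes in the deposited expression table. In the TAIR10.1 annotation they span chr1:3631-669919, with 89 genes at lower coordinates than CYP18-1, 98 at higher coordinates and 1, AT1G01930, that overlaps it. The farthest member starts or ends 341.9 kb from CYP18-1. The study measured polyadenylated RNA in germinating seeds of atcyp18-1 and of wild type (WT), each after heat of 45 °C for 2 h or in the normal condition, 1 day after imbibition. The 4 groups are atcyp18-1 heat, WT heat, atcyp18-1 normal and WT normal, with 3 libraries each. The labels name no ecotype and do not say what kind of lesion atcyp18-1 carries or how many lines were used, and all groups were stratified in the cold before they were plated. Nothing in them says that replicate libraries are separate seed batches, so p-values measure the spread between these libraries, which may be technical.

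CYP18-1 encodes a cyclophilin, an enzyme that turns the peptide bond before proline and so helps proteins fold and complexes rearrange. Neighbouring genes share no function by virtue of their position, but plant genes often start or end within a few bases of each other, and genes close together on a chromosome are inherited together with a mutant allele. The comparison between genotypes therefore asks whether expression around the mutated gene differs from that in WT, and the comparison between conditions asks how the same genes respond to heat.

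The place where CYP18-1 begins shows how tightly the genes are packed. AT1G01930, a zinc finger protein-like gene on the minus strand (chr1:319769-322895), and CYP18-1 on the plus strand (chr1:322886-324917) are annotated head to head and share 10 bases at their starts. These are printed in capitals within the 30 bases at chr1:322876-322905 (plus strand, TAIR10.1). They are shown because a change within these 10 bases would lie at the start of both genes.
AT1G01930 and CYP18-1 starts: agctttgtgaGATAAACGATtccgttttgt
On the far side, ARK2 (AT1G01950, chr1:325316-330619, plus strand) begins 399 bases after CYP18-1 ends. Of the members, 41 overlap a gene on the opposite strand and 13 a gene on the same strand. The labels describe no strand-specific step, so reads of such overlapping genes cannot be told apart.

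The libraries held 7468922 to 10506481 counts, and the members together took 0.526 to 0.585% of them. Of the 188 members, 142 passed the filter on low counts and were tested, and 46 were not. The lowest value in the table is 1, and counted above that value the untested members had at most 84 reads over the 12 libraries (median 11.5). CYP18-1 checked the labels: in TMM-scaled CPM, a count scaled to library size, it had 3.85, 2.17 and 4.08 in heated atcyp18-1, against 25.3, 25.2 and 26.2 in heated WT. Without heat it had 2.41, 1.71 and 1.66 CPM in atcyp18-1, against 21.6, 23.2 and 21.4 CPM in WT. Seed storage protein and oleosin genes, which mark reserve-filled seed cells, also moved with genotype and with heat: the 8 of 8 detected markers summed to 5696 to 8881 CPM in heated atcyp18-1 against 2182 to 3991 CPM in heated WT, and to 6589 to 7737 CPM in unheated atcyp18-1 against 1857 to 3039 CPM in unheated WT. In these whole-seed samples, fewer cells of a type and less RNA per cell cannot be told apart, and the part of these markers in the differences below was not tested. Of the endosperm markers, 3 of 4 had a value, and they summed to 487 to 546 CPM in heated atcyp18-1, 487 to 544 CPM in heated WT, 619 to 673 CPM in unheated atcyp18-1 and 551 to 626 CPM in unheated WT. The seed coat markers summed to 18.3 to 25.5 CPM in heated atcyp18-1, 18.7 to 19.9 CPM in heated WT, 30.7 to 35 CPM in unheated atcyp18-1 and 30.1 to 40.6 CPM in unheated WT, with the defining one, AT1G61720, near 0 at a mean of 0.252 CPM.

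Between genotypes and with TMM scaling, members were called at shares near those of all genes, a little above them in heat and a little below them in the normal condition. In heat, 29 of the 142 tested members (20.4%) were called between atcyp18-1 and WT, where 16.7% of all 17296 tested genes were called; 17 were higher and 12 lower in atcyp18-1 (all genes 8.17% and 8.49%). In the normal condition 27 members (19%) were called, where 23.4% of all tested genes were called; 18 were higher and 9 lower (all genes 11.2% and 12.2%). A gene was called at an adjusted p under 0.05 (edgeR quasi-likelihood test, Benjamini-Hochberg over all tested genes). The median log2 difference over the members was 0.06 in heat and 0.03 in the normal condition, beside -0.02 and 0.00 over all tested genes. A difference of 2-fold or more was called for 7 members in heat (4.93%, all genes 1.98%) and 1 in the normal condition (0.704%, all genes 1.48%). The 7 became 4 without library 1 or library 3 of heated atcyp18-1 (2.82%, beside 1.47 and 1.5% of all genes). The groups did not overlap for 47 members in heat (33.1%, all genes 32.6%) and for 51 in the normal condition (35.9%, all genes 40.1%). Directions are relative to the typical gene. With plain library sizes in place of TMM, the median of all genes moved by -0.16 in heat and -0.14 in the normal condition. The members called then split into 7 higher and 21 lower in heat and 7 higher and 19 lower in the normal condition. All 17296 tested genes then had 577 called higher and 3505 lower in heat, and 831 higher and 3695 lower in the normal condition. With TMM scaling again, the count of members called in heat was 16 without library 1 or library 3 of heated atcyp18-1. It was 18 without library 2 and 19 without library 1 of heated WT. Calls over all tested genes fell as well, from 1413 higher and 1468 lower. In the same order of fits they were 880 and 885, 825 and 864, 865 and 956, and 1091 and 1137. In the normal condition the count of members was 10 without library 3 of unheated atcyp18-1, 15 without library 1 and 17 without library 2 of unheated WT. Calls over all tested genes fell from 1937 higher and 2110 lower. In the same order of fits they were 1223 and 1234, 1380 and 1478, and 1470 and 1565.

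Called members were about as frequent near CYP18-1 as farther away. Most of the nearer ones were higher in atcyp18-1, except with plain library sizes, under which most of all called genes were lower. Under 100 kb, 10 of 50 tested members were called in heat (20%) and 9 of 50 in the normal condition (18%). At 100 kb or more the counts were 19 of 92 (20.7%) in heat and 18 of 92 (19.6%) in the normal condition. Over all tested genes 16.7% were called in heat (8.17% higher, 8.49% lower). In the normal condition the share was 23.4% (11.2% higher, 12.2% lower). Of the nearer ones, 9 were higher and 1 lower in heat and 8 higher and 1 lower in the normal condition, with median log2 differences over the 50 of 0.15 in each. Of the farther ones, 8 were higher and 11 lower in heat and 10 higher and 8 lower in the normal condition, with medians over the 92 of -0.04 and 0.00. With plain library sizes the nearer ones split into 3 higher and 4 lower in heat and 3 and 3 in the normal condition. The farther ones split into 4 higher and 17 lower in heat and 4 and 16 in the normal condition. Of all 17296 tested genes, 577 were then higher and 3505 lower in heat, and 831 and 3695 in the normal condition. Medians in heat were then -0.002 over the nearer members and -0.18 over all tested genes. In the normal condition they were 0.02 and -0.14. The nearer calls in heat fell in number to 4 higher and 1 lower without library 3 of heated atcyp18-1, 5 and 0 without library 1 of heated WT, and 6 and 0 without library 1 of heated atcyp18-1 or library 2 of heated WT. In the unheated comparison they were 2 higher and 0 lower without library 3 of atcyp18-1, 3 and 1 without library 1 of WT, 5 and 1 without library 1 of atcyp18-1 or library 3 of WT, and 6 and 0 without library 2 of WT. In each of these fits without 1 library, fewer of all tested genes were called as well. The difference between near and far was not tested. Among the 10 nearest tested members at lower coordinates, reaching 27.0 kb away, 3 were called in heat and 2 in the normal condition. Among the 10 nearest at higher coordinates, reaching 48.4 kb away, 1 was called in each. Sets of 10 genes are too small to set apart from the shares of all genes. The next block along the chromosome, AT1G02970 to AT1G04930, had 24 of 163 tested genes called in heat (14.7%) and 41 of 163 in the normal condition (25.2%). The plot of log2 difference against distance shows the called genes scattered along both arms.

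**Figure D1:**
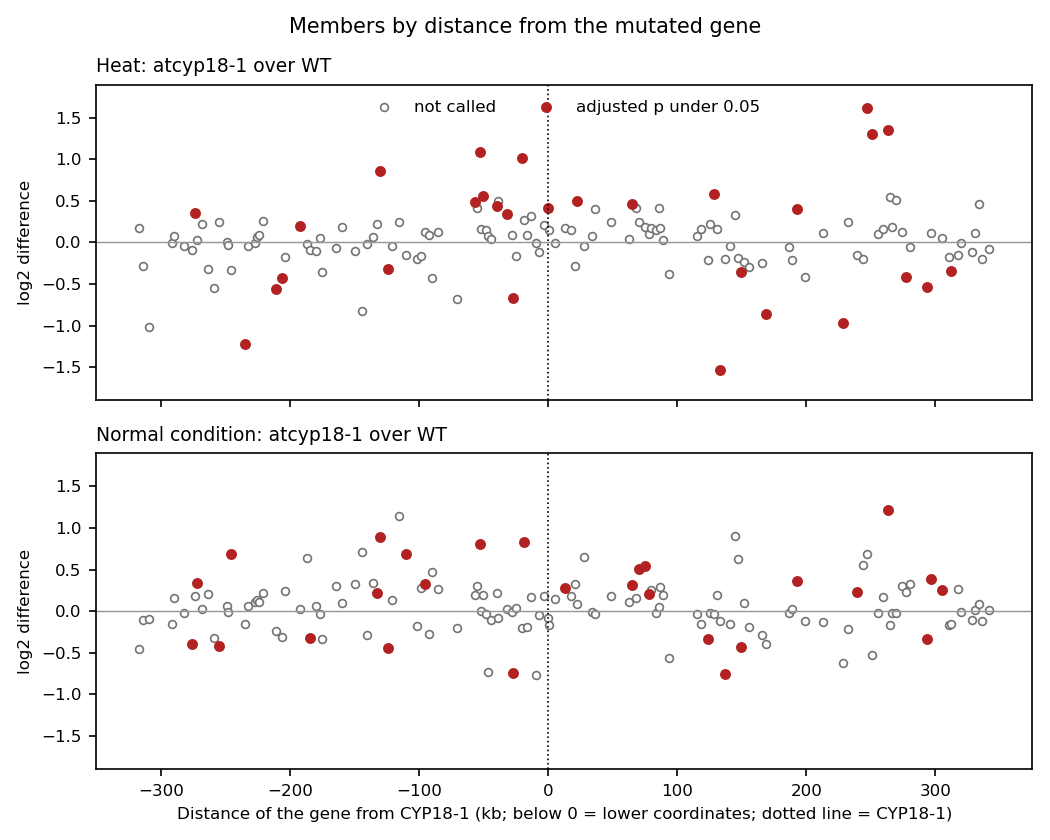
Log2 difference of atcyp18-1 over WT for each of the 142 tested members (y axis) against the gene's distance from CYP18-1 in kb (x axis), in heat (top) and in the normal condition (bottom). Filled points are called at an adjusted p under 0.05, 29 in heat and 27 in the normal condition; they lie on both sides of CYP18-1 and are not gathered at the dotted line that marks it.

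Few of the genes directly beside CYP18-1 were called between genotypes, but they are too few to set apart from the share of all genes. Of the 12 flanking gene IDs from AT1G01880 to AT1G02000, 11 had values and 10 were tested. In heat 1 was called (all genes 16.7%) and in the normal condition 1 (all genes 23.4%), both higher in atcyp18-1. The median log2 difference over the 10 was 0.15 in heat and 0.16 in the normal condition. AT1G01930, which shares its first bases with CYP18-1, had 17, 19.7 and 15.7 CPM in heated atcyp18-1, against 12.6, 12.7 and 14 CPM in heated WT. The heated groups did not overlap, and the log2 difference was 0.42 ± 0.12 (SE, n = 3 each, edgeR adjusted p = 0.0219). In the normal condition it had 17.1, 17.6 and 15.1 CPM in atcyp18-1 against 16.8, 17.2 and 18.8 CPM in WT, and the difference of -0.08 ± 0.11 was not called (adjusted p = 0.635). The call in heat was lost without library 1 (adjusted p = 0.0644) or library 2 (0.0715) of heated WT, and without library 1 (0.052) or library 2 (0.104) of heated atcyp18-1. It was also lost with plain library sizes, by DESeq2 (its adjusted p = 0.0784) and with no filter on low counts (0.0573, edgeR). The test of whether heat acted differently in the 2 genotypes on this gene gave 0.50 ± 0.16 (adjusted p = 0.13).

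ARK2, a kinesin that moves along microtubules, lies on the other side of CYP18-1. It had 29, 29 and 29.2 CPM in heated atcyp18-1 and 24, 27 and 27.2 CPM in heated WT, a log2 difference of 0.16 ± 0.09 that was not called (adjusted p = 0.265). Without heat it had 28.5, 32 and 30.3 CPM in atcyp18-1 and 35.7, 33.3 and 33.1 CPM in WT, with a difference of -0.17 ± 0.09 (adjusted p = 0.171). Libraries of the 2 genotypes stood apart both with and without heat, yet neither difference passed the threshold.

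The other flanking gene called was AT1G01970, a tetratricopeptide repeat protein gene 13.3 kb away. It had 32, 29.5 and 32.6 CPM in unheated atcyp18-1 against 25.7, 28.3 and 23.8 CPM in unheated WT, a log2 difference of 0.28 ± 0.10 (adjusted p = 0.0477). That call was lost in 6 of the fits that leave out 1 library, with adjusted p up to 0.179 without library 3 of unheated WT and 0.142 without library 3 of unheated atcyp18-1. It was also lost by DESeq2, with no filter on low counts and with plain library sizes. In the remaining 8 tested flanking genes the log2 differences lay between -0.28 (GAE2) and 0.32 (AT1G01880) in heat, and between -0.77 (SBTI1.1) and 0.33 (GAE2) in the normal condition, none called. SBTI1.1, a subtilase, was the least expressed of them, at 1.4, 1.45 and 1.26 CPM in heated atcyp18-1. AT1G01980, annotated in the FAD-binding berberine family, had 7 reads over the 12 libraries and was not tested.

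**Figure D2:**
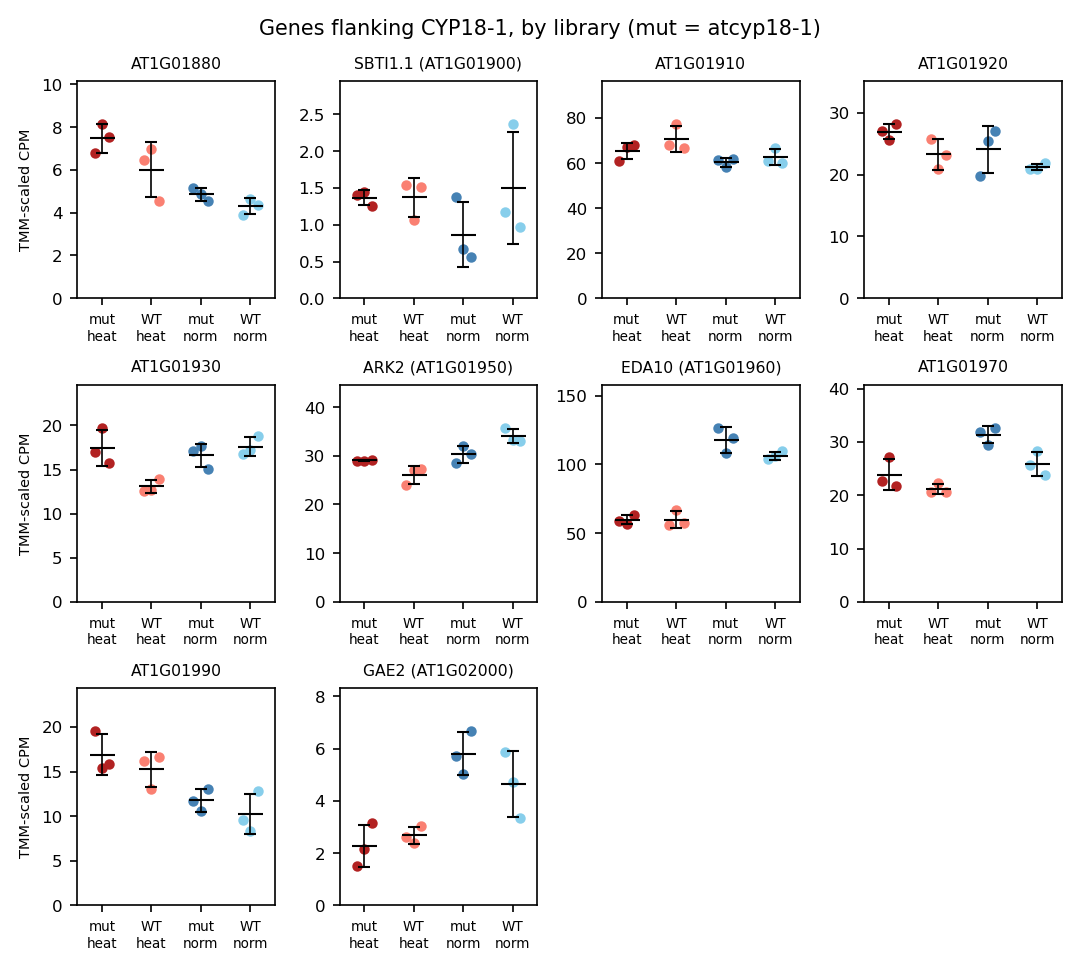
TMM-scaled CPM of the 10 tested genes flanking CYP18-1, 1 panel per gene; points are libraries, bars the mean ± SD of 3. Heated libraries of EDA10 sit between 55.9 and 66.8 CPM in both genotypes, below all unheated ones, while the genotypes overlap in most panels.

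With heat, 5 of the 10 tested flanking genes were called in atcyp18-1 (2 higher, 3 lower in heat; 46.3% of all genes were called) and 7 in WT (2 higher, 5 lower; 50.1% of all genes). EDA10, a SEC7-type exchange factor that switches on small GTPases of vesicle traffic, fell to 59.1, 56.8 and 63.6 CPM in heated atcyp18-1, against 127, 108 and 119 CPM unheated. In WT it fell to 55.9, 66.8 and 57.1 CPM, against 104, 106 and 110 CPM unheated. The log2 changes were -0.98 ± 0.08 (adjusted p = 6.08e-09) in atcyp18-1 and -0.83 ± 0.08 (4.8e-08) in WT. GAE2, an epimerase that makes the sugar nucleotide for pectin, fell by 1.38 on the log2 scale in atcyp18-1 (adjusted p = 0.000275) and by 0.77 in WT (0.0152, lost without library 2 of heated WT, 0.0522, or library 1 of unheated WT, 0.104). AT1G01990, of unknown function, rose in both, by 0.53 ± 0.16 in atcyp18-1 and 0.57 ± 0.15 in WT; the first call was lost without library 1 of heated atcyp18-1 (adjusted p = 0.0723) and with plain library sizes.

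Farther out, 9 members were called between genotypes in both conditions, each in the same direction, 5 higher and 4 lower, where 8.1% of all tested genes were called in both in the same direction (3.9% higher and 4.2% lower). The 2 comparisons share no library, but the same model estimated the spread over all 4 groups, so their calls are not fully independent. The 5 higher ones are AT1G02700, ATAF1, ASG4, SAM1 and SBI1, and the 4 lower ones are AT1G01540, AT1G01810, AT1G02370 and AT1G02810. A further 20 members were called in heat alone (all genes 8.35%) and 18 in the normal condition alone (all genes 15.1%); whether heat changed the genotype difference is a separate test, given below, which was passed by 1 member.

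AT1G02700, annotated as GATA transcription factor-like, had the largest difference called in the normal condition. It had 203, 168 and 203 CPM in heated atcyp18-1 against 63.2, 77 and 85.1 CPM in heated WT, and 76.9, 67.8 and 70.1 CPM in unheated atcyp18-1 against 36.3, 32.1 and 24.1 CPM in unheated WT. The groups were fully apart in both conditions, with unheated atcyp18-1 at about the level of heated WT. The log2 difference was 1.35 ± 0.12 in heat (adjusted p = 1.78e-07) and 1.22 ± 0.13 in the normal condition (1.71e-06), and both calls held in each of the 20 alternatives.

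ATAF1 (AT1G01720, 53.1 kb away) is a NAC transcription factor of stress and abscisic acid responses. It had 659, 399 and 667 CPM in heated atcyp18-1 against 236, 220 and 358 CPM in heated WT, and 148, 141 and 166 CPM in unheated atcyp18-1 against 95.5, 79.3 and 85.1 CPM in unheated WT. Library 2 of heated atcyp18-1 was the lowest of its group and still above library 3 of heated WT, the highest of its own. The log2 difference was 1.08 ± 0.16 in heat (adjusted p = 0.000135) and 0.81 ± 0.17 in the normal condition (0.00158), held in each of the 20 alternatives. Its annotated span overlaps AT1G04043 by 344 bases and AT1G01725 by 28 on the other strand.

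ASG4 (AT1G01520), a MYB-like transcription factor of the family that holds clock genes, had 21.4, 10.6 and 17.6 CPM in heated atcyp18-1 against 8, 7.7 and 11.7 CPM in heated WT. Library 2 of heated atcyp18-1 overlapped WT here. Without heat it had 8.94, 7.24 and 7.77 CPM in atcyp18-1 against 5.46, 4.62 and 2.89 CPM in WT, with no overlap. The log2 differences were 0.86 ± 0.22 (adjusted p = 0.0108) and 0.89 ± 0.26 (0.0169). The heat call was lost without library 1 of heated atcyp18-1 (0.113) or library 2 of heated WT (0.0514), and the other without library 1 of unheated atcyp18-1 (0.0624) or library 3 of unheated WT (0.0957). ASG4 begins inside the last 65 bases of AN on the same strand, so reads there cannot be assigned to one of them.

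SAM1, which makes S-adenosylmethionine, the methyl donor of the cell, had 59.8, 63.5 and 57.3 CPM in heated atcyp18-1 against 51.5, 39.3 and 46.1 CPM in heated WT. Unheated, it had 48.7, 47.8 and 52.6 CPM in atcyp18-1 against 38.4, 37.9 and 39.7 CPM in WT. The groups did not overlap in either condition, and the log2 differences of 0.40 ± 0.09 (adjusted p = 0.00472) and 0.36 ± 0.09 (0.0062) were lost with plain library sizes alone. SBI1, a methyltransferase that acts on protein phosphatase, was higher by 0.46 ± 0.12 in heat and by 0.32 ± 0.11 in the normal condition. The first call was lost without library 3 of heated atcyp18-1 (adjusted p = 0.0653) or with plain library sizes. The second was lost in 4 of the fits without 1 library, with adjusted p up to 0.197 without library 2 of unheated WT. That second call was also lost by DESeq2, with no filter on low counts, with plain library sizes and with the transcript of the highest total.

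Among the members lower in atcyp18-1, AT1G01540, a protein kinase, had 18.2, 23.1 and 21.5 CPM in heated atcyp18-1 against 26.3, 27 and 24.6 CPM in heated WT. Without heat the values were 24.6, 23.8 and 23.6 CPM in atcyp18-1 against 33.8, 33 and 31.6 CPM in WT, a difference of -0.45 ± 0.09 (adjusted p = 0.00159) that held in each alternative. The heat difference, -0.32 ± 0.10 (0.0353), was lost in 8 of the 12 fits without 1 library and with only the 2 groups compared. AT1G02810, annotated in the invertase and pectin methylesterase inhibitor superfamily, was lower by -0.54 ± 0.13 in heat (adjusted p = 0.00747, held in each alternative). In the normal condition it differed by -0.34 ± 0.11 (0.0319). The latter call was lost in 4 fits without 1 library, by DESeq2 and with no filter on low counts. AT1G02370, a repeat protein gene, differed from WT by -0.35 ± 0.11 in heat (lost in 5 fits without 1 library and with no filter on low counts). In the normal condition it differed by -0.43 ± 0.11 (lost without library 3 of unheated atcyp18-1, adjusted p = 0.0759). AT1G01810 differed by -0.67 ± 0.22 in heat (adjusted p = 0.0411) and by -0.74 ± 0.24 in the normal condition (0.0294), and these calls were lost in 7 and 5 of the fits without 1 library. Both were also lost by DESeq2 and with no filter on low counts, and the heat call with only the 2 groups compared.

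In heat alone, the largest differences among members of at least 5 CPM were those of AT1G02660 and RABA3. AT1G02660, an alpha/beta-hydrolase, had 31.9, 14.6 and 33.9 CPM in heated atcyp18-1 against 7.12, 5.45 and 13.3 CPM in heated WT, with library 2 of atcyp18-1 and library 3 of WT close to each other. Its log2 difference was 1.62 ± 0.26 (adjusted p = 0.000296); unheated, it had 6.42, 5.05 and 4.66 CPM in atcyp18-1 against 2.73, 3.11 and 4.03 CPM in WT, and 0.69 ± 0.37 was not called (0.187). RABA3, a Rab GTPase of membrane traffic, had 1.75, 2.61 and 2.2 CPM in heated atcyp18-1 against 5.04, 5.09 and 5.06 CPM in heated WT, a difference of -1.22 ± 0.24 (adjusted p = 0.00152).
The bHLH gene AT1G01260 was also lower in heat, at 7.12, 7.97 and 7.06 CPM in atcyp18-1 against 11, 10.4 and 11.2 CPM in WT (-0.56 ± 0.13, adjusted p = 0.00546). AT1G01730, of unknown function, was higher, at 49.9, 41.3 and 54.9 CPM in atcyp18-1 against 31.8, 26.3 and 40.9 CPM in WT (0.56 ± 0.13, adjusted p = 0.00551). It runs into AT1G01725 and BSK4 on the other strand.

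In the normal condition alone, RA-5, a Rab GTPase of traffic from the endoplasmic reticulum to the Golgi, had 42.8, 38.9 and 40.7 CPM in atcyp18-1 against 28.6, 31.1 and 24.6 CPM in WT. The groups did not overlap (0.54 ± 0.09, adjusted p = 0.000332). AT1G02330, an integrator complex subunit-like gene, had 11.8, 11.8 and 9.55 CPM in atcyp18-1 against 18.1, 19.1 and 19 CPM in WT (-0.76 ± 0.13, adjusted p = 0.000313). FRO2, the ferric reductase of iron uptake, had 8.25, 11.4 and 12.2 CPM in atcyp18-1 against 5.86, 6.44 and 7.53 CPM in WT (0.68 ± 0.18, adjusted p = 0.00845), a call lost without library 3 of unheated atcyp18-1 (0.0548). TOC33, a receptor for proteins entering chloroplasts, had 96.7, 106 and 91.9 CPM in atcyp18-1 against 125, 116 and 130 CPM in WT (-0.34 ± 0.07, adjusted p = 0.00208).

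**Figure D3:**
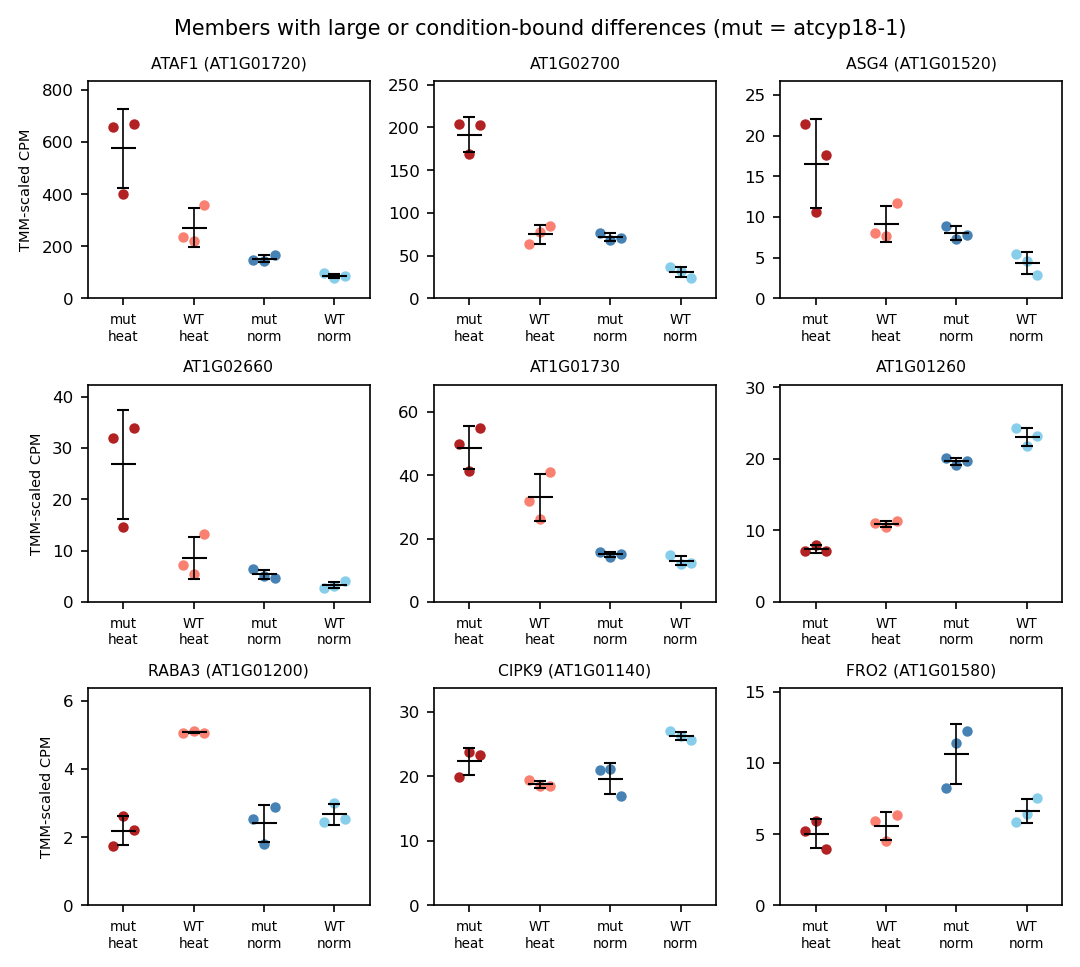
TMM-scaled CPM of 9 members by library, 1 panel per gene; bars are the mean ± SD of 3 libraries. AT1G02700 and ATAF1 are higher in atcyp18-1 in both conditions, AT1G02660 in heat, and FRO2 in the normal condition; RABA3 in heated WT sits at 5.04 to 5.09 CPM, above its other groups.

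More members were called for heat than for genotype, though fewer than the share of all genes. In atcyp18-1, 56 of 142 members (39.4%) were called between heat and normal, where 46.3% of all tested genes were called; 33 rose and 23 fell (all genes 22.9% and 23.4%). In WT, 62 members (43.7%) were called, where 50.1% of all tested genes were called; 37 rose and 25 fell (all genes 25% and 25.1%). The groups did not overlap for 73 members in atcyp18-1 (51.4%, all genes 54.6%) and for 68 in WT (47.9%, all genes 56%). The median log2 change over the members was 0.06 in atcyp18-1 and 0.03 in WT, beside 0.00 over all genes in each. A change of 2-fold or more was called for 15 members in atcyp18-1 (10.6%, all genes 9.78%) and 13 in WT (9.15%, all genes 9.42%). With plain library sizes, under which the median of all genes shifted by -0.23 in atcyp18-1 and -0.21 in WT, the split was 16 higher and 45 lower in atcyp18-1 and 19 higher and 48 lower in WT. In atcyp18-1 the split was 23 higher and 25 lower by DESeq2, and 25 higher and 30 lower with no filter on low counts. The splits of all tested genes in these other fits were not counted. Markers of other cells moved with heat as well. Both tested seed coat genes, of 4 listed, fell in each genotype. Of the 3 tested endosperm markers, 1 rose and 2 fell in each genotype, where with plain library sizes 0 rose in atcyp18-1. Of the 8 seed storage and oleosin genes, 2 rose in atcyp18-1 (median log2 change 0.22) and 6 rose in WT (0.63), where with plain library sizes 0 rose in atcyp18-1 (median -0.01) and 4 in WT (0.43). The part of these markers in the heat changes of the members was not tested.

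Both genotypes called 41 members, each in the same direction, 25 rising and 16 falling with heat, where 34.8% of all tested genes were called in both in the same direction (17.1% rising and 17.7% falling). Another 15 were called in atcyp18-1 alone (all genes 11.4%) and 21 in WT alone (all genes 15.2%), and of these CIPK9 alone passed the test of a difference in heat response described below, while 55 members were called in none of the 4 pairwise comparisons. Among members of at least 5 CPM, the largest rises shared by both genotypes were those of 5 genes that also differed between genotypes in at least 1 condition. ATAF1 rose by 1.92 ± 0.17 on the log2 scale in atcyp18-1 (adjusted p = 7.05e-09) and by 1.65 ± 0.17 in WT (7.02e-08). AT1G02660 rose by 2.32 ± 0.28 (9.87e-07) and 1.39 ± 0.34 (0.0018), AT1G01730 by 1.70 ± 0.14 (3.25e-09) and 1.35 ± 0.14 (1.16e-07), AT1G02700 by 1.42 ± 0.12 (3.42e-09) and 1.29 ± 0.13 (3.72e-08), and ASG4 by 1.07 ± 0.22 (0.000533) and 1.10 ± 0.26 (0.00117), in atcyp18-1 and WT in that order. Each of these 10 rises held in the 20 alternatives.

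AT1G01260 fell by 1.41 ± 0.12 in atcyp18-1 (adjusted p = 5.3e-09) and by 1.08 ± 0.11 in WT (3.41e-08), against 20.2, 19.1 and 19.6 CPM unheated in atcyp18-1 and 24.3, 21.8 and 23.1 CPM unheated in WT. AT1G01350, a zinc finger gene, fell by 0.79 ± 0.12 in atcyp18-1 and by 1.01 ± 0.11 in WT; a copy on chromosome 5, AT5G06420, matches it at 95.9% identity over 826 bases, so the assignment of its reads is uncertain. FRO2 fell by 1.07 ± 0.20 in atcyp18-1 (adjusted p = 0.000153), while its change of -0.24 ± 0.20 in WT was not called (0.332). KCS1, which lengthens fatty acids for wax, fell by 1.02 ± 0.22 in atcyp18-1, and its change in WT was -0.49 ± 0.21 (adjusted p = 0.0572).

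**Figure D4:**
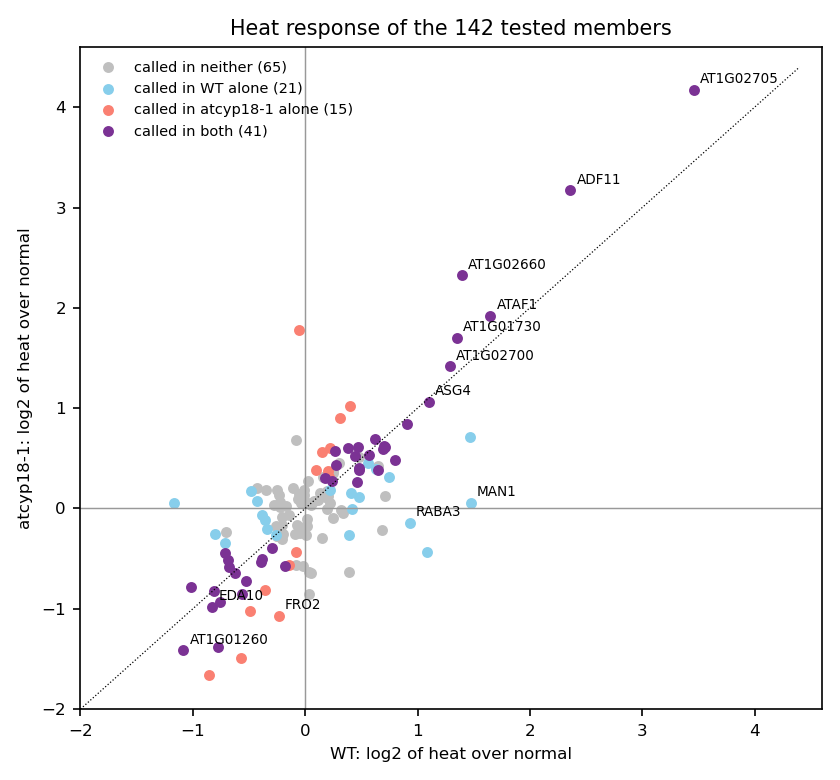
Log2 of heat over normal in atcyp18-1 (y axis) against WT (x axis) for the 142 tested members; the dotted line marks equal change, and colours show where the change was called. The 41 members called in both genotypes lie in the upper right and lower left; the named genes include ATAF1 at 1.65 in WT and 1.92 in atcyp18-1.

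Low in unheated seeds, 2 further members rose in heat; they lie below the 5 CPM used for naming and were picked out after their values were seen. ADF11, an actin depolymerizing factor, had 2.22, 2.17 and 2.67 CPM in heated atcyp18-1 against 0.229, 0.381 and 0.111 CPM unheated, and 2.41, 1.18 and 2.93 CPM in heated WT against 0.488, 0.322 and 0.438 CPM unheated. AT1G02705, the next gene after AT1G02700, had 2.69, 2.75 and 2.98 CPM in heated atcyp18-1 against 0.229, 0.0952 and 0.111 CPM unheated, and 1.31, 1.07 and 3.24 CPM in heated WT against 0.195, 0.107 and 0.175 CPM unheated. Above the table's lowest value of 1, its unheated libraries together held 1 read in atcyp18-1 and 2 reads in WT, so no fold is given. Both overlap genes on the other strand, AT1G04053 for ADF11 and AT1G02710 for AT1G02705.

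By function, the members called with heat were spread over the lists made for this block, which are small; over all tested genes 22.9% rose and 23.4% fell in atcyp18-1, and 25% rose and 25.1% fell in WT. DCL1, AT1G01210, TBL25, UMAMIT28, ABCB11, RCAR1, RALF1 and GSTF6 are outside the naming rule and were picked out to fill the counts after their values were seen. Of the stress protection and detoxification genes, 3 of 6 tested rose and none fell in atcyp18-1, and 4 of 6 rose and none fell in WT, with median log2 changes of 0.38 and 0.51 beside 0.00 over all genes. LEA14, a late embryogenesis abundant protein of drying tissue, had 36.3, 28.1 and 27.2 CPM in heated atcyp18-1 against 21.5, 21.9 and 30.9 CPM unheated, which was not called (adjusted p = 0.127). In WT it rose to 25.5, 39.1 and 34.7 CPM, against 23.5, 16.1 and 19.5 CPM unheated (0.74 ± 0.16, adjusted p = 0.000726). GSTF6 and its neighbour GSTF7, glutathione transferases that are 91.7% identical over 508 bases, both rose in atcyp18-1 (0.62 and 0.60), and GSTF6 rose in WT (0.70).

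Of the RNA processing and transcription genes, 3 of 7 rose in each genotype and none fell, beside 22.9 and 25% of all genes that rose in atcyp18-1 and in WT. They were DCL1, which cuts microRNA precursors, AT1G01210, an RNA polymerase subunit, and MAGO, a core protein of the exon junction complex. MAGO had 247, 249 and 230 CPM in heated atcyp18-1 against 150, 152 and 174 CPM unheated, and 216, 232 and 227 CPM in heated WT against 145, 133 and 134 CPM unheated. Heated and unheated libraries were fully apart (0.61 ± 0.07, adjusted p = 7.55e-07, and 0.71 ± 0.07, 7.04e-08). AT1G02080, annotated as a transcription regulator, was called in none of the 5 tests, at 219, 215 and 246 CPM in heated atcyp18-1 and 176, 176 and 220 CPM in heated WT.

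Of the cell wall genes, 3 of 7 tested were called in atcyp18-1, each lower in heat (GAE2, BXL2 and AT1G02810), and in WT the same 3 were lower and TBL25 and MAN1 higher. BXL2, a xylosidase and the most abundant member, had 640, 760 and 667 CPM in heated atcyp18-1 against 1063, 965 and 1046 CPM unheated, a fall of 0.57 ± 0.07 (adjusted p = 1.24e-06). In WT it had 792, 756 and 752 CPM heated against 840, 917 and 855 CPM unheated (-0.18 ± 0.07, adjusted p = 0.0364, lost without library 2 of heated WT, 0.0867, library 3 of heated WT, 0.0918, or library 2 of unheated WT, 0.125). MAN1, a mannanase of seed reserves and walls, had 1.28, 0.435 and 0.471 CPM in heated atcyp18-1 against 1.42, 2.84 and 2.53 CPM in heated WT; the difference of -1.53 ± 0.45 (adjusted p = 0.0233) was lost in 4 fits without 1 library, and most of the gene lies over AT1G04103 on the other strand.

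Of 14 protein sorting, folding and turnover genes, 3 rose and 3 fell in atcyp18-1 and 3 rose and 5 fell in WT. Among 10 genes of mitochondria and plastids, 4 rose and 2 fell in atcyp18-1, and 1 rose and 1 fell in WT. The 6 tested transport genes included KEA1, a potassium antiporter of chloroplasts, which rose in heated atcyp18-1 (20, 21 and 22.8 CPM against 14, 14.9 and 13.8 CPM unheated; 0.57 ± 0.11, adjusted p = 0.000196); its rise in WT, 0.27 ± 0.11 (0.0461), was lost in 15 of the 20 alternatives. In atcyp18-1, 3 of the 6 fell with heat (UMAMIT28, FRO2 and ABCB11), and in WT 2 fell (UMAMIT28 and ABCB11); ABCB11 and its neighbour AT1G02530 are 90.02% identical over 1683 bases. Hormone genes split: SAM1 rose and the abscisic acid receptor RCAR1 and the peptide hormone gene RALF1 fell in both genotypes, where the rises of SAM1 were lost in 5 alternatives in atcyp18-1 and 9 in WT. ACS2, which makes the precursor of ethylene, rose in WT to 0.986, 1.9 and 1.32 CPM, against 0.683, 0.644 and 0.613 CPM unheated (1.09 ± 0.37, adjusted p = 0.0198), a call lost in 4 of 19 alternatives, among them without library 2 of heated WT (0.115) and library 3 of unheated WT (0.0607); its change in atcyp18-1 was -0.44 ± 0.41 (0.402). Of the 5 tested signalling kinases and GTPases, none was called by heat in atcyp18-1, and in WT RABA3 rose while CIPK9 and AT1G01540 fell. Of 8 tested chromatin and cytoskeleton genes 3 rose in atcyp18-1 (ADF11, PLIM2b and AT1G01880), and in WT 2 rose and ARK2 fell. Of 9 lipid and wax genes, AT1G02660 rose in both genotypes and KCS1 fell in atcyp18-1, and of 7 transcription factors ATAF1 rose and AT1G01260 fell in both, with NGA3 falling in atcyp18-1.

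The response to heat differed between genotypes for 1 of 142 members (0.704%), where 1.08% of all tested genes passed that test (0.63% higher and 0.451% lower); 19 members had an unadjusted p under 0.05. The gene was CIPK9, a calcium-regulated kinase of potassium nutrition. It had 19.8, 23.8 and 23.2 CPM in heated atcyp18-1 against 19.4, 18.5 and 18.4 CPM in heated WT, and 21, 21.1 and 16.9 CPM in unheated atcyp18-1 against 26.9, 26.2 and 25.6 CPM in unheated WT. With heat it fell in WT by 0.48 ± 0.10 (adjusted p = 0.000635) and was not called in atcyp18-1 (0.17 ± 0.11, adjusted p = 0.202). The difference between those changes was 0.66 ± 0.15 (adjusted p = 0.0432). It lost its call in 10 of the 12 fits without 1 library, with adjusted p between 0.0521 without library 3 of unheated WT and 0.114 without library 3 of heated atcyp18-1, and it lost it with plain library sizes and with no filter on low counts. DESeq2 called 4 members for this test, and its calls over all genes were not counted.

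Introns of the members were described from the authors' deposited tables, which list only the events called there, so these counts are descriptive, and the genes named from them were picked out after their values were seen. For heat against normal, the tables list 39 introns in 11 members for atcyp18-1, of 2458 introns in 1291 genes. For WT they list 46 introns in 10 members, of 2488 introns in 1259 genes. Of the member introns, 29 stand in both lists, 74.4% of the atcyp18-1 list and 63% of the WT list, all 29 in the same direction. The ratio of intron reads to reads of the adjoining exons was higher in heat for 37 of the 39 and 44 of the 46 (94.9% and 95.7%), beside 82.2% and 92.8% of all introns listed. Most of these member introns came from a few long genes, given below, so they are not separate observations. As most listed introns were higher in heat, the shared direction of the 29 says little. Between genotypes the authors' deposited tables list 2 member introns in heat, of 310 over all genes, and 1 in the normal condition, of 282.

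Both introns of ATAF1 are in both heat lists. They are printed here from TAIR10.1 with the first 2 and last 2 bases in capitals, at chr1:268631-268716 and chr1:268995-269082 on the plus strand, followed by both introns of its neighbour AT1G01730, at chr1:271290-271378 and chr1:271434-271540, because all 4 were retained more in heat.
ATAF1 intron 1: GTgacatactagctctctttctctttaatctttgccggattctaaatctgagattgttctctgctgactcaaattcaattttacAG
ATAF1 intron 2: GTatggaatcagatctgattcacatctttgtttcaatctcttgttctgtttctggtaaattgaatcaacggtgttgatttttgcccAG
AT1G01730 intron 1: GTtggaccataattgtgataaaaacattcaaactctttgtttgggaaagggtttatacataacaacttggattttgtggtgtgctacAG
AT1G01730 intron 2: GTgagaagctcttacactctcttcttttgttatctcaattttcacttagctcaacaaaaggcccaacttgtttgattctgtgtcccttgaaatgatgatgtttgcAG
In the authors' deposited table, reads in intron 2 of ATAF1 were 29.2, 29.1 and 29.8% of exon reads in heated atcyp18-1 against 2.88, 3.93 and 4.02% unheated. In WT they were 27.2, 20.5 and 26.6% heated against 2.85, 2.87 and 2.33% unheated. The authors' ratios, which set the higher group mean over the lower, were 8.13 for this intron in atcyp18-1 and 9.23 in WT, with unadjusted p of 3.63e-06 and 0.00877 in the same deposited tables. For intron 1 the authors' deposited table gave 43.7, 43.4 and 41.5% in heated atcyp18-1 against 11.1, 9.69 and 11.7% unheated, and 46.7, 34.2 and 39.8% in heated WT against 8.86, 9.66 and 12.7% unheated. Heated and unheated libraries were fully apart in both genotypes, and the heated genotypes overlapped at intron 1.
Intron 1 of AT1G01730 had 36, 47.2 and 37.1% in heated atcyp18-1 against 6.4, 10.8 and 8% unheated in the authors' deposited table, and 36.7, 18.9 and 35.7% in heated WT against 6.5, 2.6 and 11.1% unheated. Library 2 of heated WT was lower than the other heated libraries.

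**Figure D5:**
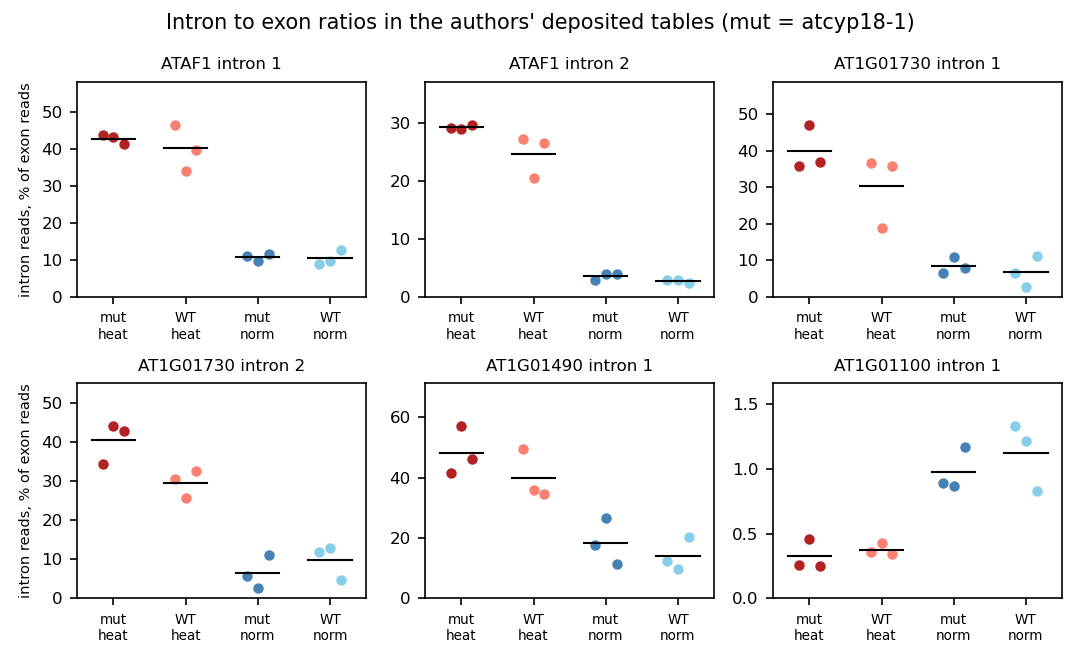
Intron reads as a percentage of adjoining exon reads for 6 member introns, by library, from the authors' deposited tables; bars are means of 3. The 5 introns of ATAF1, AT1G01730 and AT1G01490 are higher in heat in both genotypes, and intron 1 of AT1G01100 is lower, below 0.5% heated.

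The longest genes gave most of the listed introns. AT1G02080, with 49 introns, had 14 listed in each genotype, all higher in heat, with group means of 16.2 to 63.1% in heated atcyp18-1 and 22.2 to 62.0% in heated WT in the authors' deposited tables. AT1G01320, a tetratricopeptide repeat gene with 24 introns, had 11 in atcyp18-1 and 15 in WT, 8 of them in both. AT1G02890, an AAA-type ATPase gene with 26 introns, had 2 in atcyp18-1 and 7 in WT. Falling introns were those of AT1G01100, a ribosomal protein gene: intron 1 had 0.260, 0.459 and 0.252% in heated atcyp18-1 against 0.887, 0.866 and 1.17% unheated, and 0.355, 0.429 and 0.339% in heated WT against 1.33, 1.21 and 0.828% unheated.
Between genotypes in heat, intron 3 of FUS5, a subunit of the COP9 signalosome, had 20.4, 13.1 and 16.3% in atcyp18-1 against 8.13, 7.72 and 11.4% in WT (the authors' deposited table, ratio 1.83, unadjusted p = 0.0499). Intron 21 of AT1G02890 had 4.9, 4.1 and 5.28% in atcyp18-1 against 9.64, 11.7 and 10.2% in WT (WT mean over atcyp18-1 mean 2.21, unadjusted p = 0.0031, same deposited table), on 5.61 to 9 scaled intron reads per library in atcyp18-1 and 16 to 22.1 in WT. In the normal condition the 1 listed intron, intron 22 of AT1G02890, had 8.38, 10.5 and 9.11% in atcyp18-1 against 5.57, 2.68 and 5.71% in WT (ratio 2.00, unadjusted p = 0.0227, the authors' deposited table), on 14 to 22.9 scaled intron reads in atcyp18-1 and 4 to 12.7 in WT. These 2 introns of 1 gene went opposite ways, and they are printed because they are the member introns of that gene listed between genotypes (minus strand, chr1:649676-649761 and chr1:650439-650562).
AT1G02890 intron 21: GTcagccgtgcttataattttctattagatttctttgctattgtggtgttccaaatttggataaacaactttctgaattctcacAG
AT1G02890 intron 22: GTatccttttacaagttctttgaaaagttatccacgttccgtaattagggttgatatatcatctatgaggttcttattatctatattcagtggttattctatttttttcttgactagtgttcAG
For heat, the authors' deposited tables list 162 alternative 5' and 195 alternative 3' splice site events over all genes in atcyp18-1, and 196 of each in WT. Those of members are an alternative 5' splice site of AT1G01490 in both genotypes and of CIPK9 in WT, and an alternative 3' splice site of AT1G01320 in both and of AT1G02620 in WT; between genotypes the deposited tables list CER1, 1 of 59 alternative 5' events, in heat, and AT1G02620, 1 of 76 alternative 3' events, in the normal condition. They list no exon skipping of a member.

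The bases before the genes were searched for letters that heat and abscisic acid factors are known to bind: the heat shock elements GAANNTTC and TTCNNGAA and the abscisic acid response core ACGTG, on both strands, in the 250 bases before each annotated start. A heat shock element in either form stood before 3 of the 25 members that rose with heat in both genotypes (12%) and 1 of the 16 that fell (6.25%), beside 15.9% of all 17087 tested genes with such a window. ACGTG stood before 8 of the 25 risers (32%) and 1 of the 16 that fell (6.25%), beside 23.4% of all. Over all tested genes that rose in both genotypes, 25.2% had ACGTG and 18.2% a heat shock element. Over all that fell in both, the shares were 21.2% and 14.8%. The member sets are small, and these differences were not tested. The windows are often not free: 12 of the 25 reach into another annotated gene. Among those that do not are AT1G02660 (chr1:575086-575335, minus strand), AT1G02700 (chr1:587753-588002, plus strand) and AT1G01990 (chr1:344401-344650, minus strand), shown as examples with matches in capitals. No rule set beforehand picked these 3 out of the 25, and AT1G02660 has the most ACGTG matches of them all.
AT1G02660: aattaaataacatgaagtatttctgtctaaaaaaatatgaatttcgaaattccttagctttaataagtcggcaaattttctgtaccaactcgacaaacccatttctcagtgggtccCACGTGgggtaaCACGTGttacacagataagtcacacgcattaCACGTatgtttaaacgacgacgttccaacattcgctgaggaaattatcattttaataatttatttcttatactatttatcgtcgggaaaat
AT1G02700: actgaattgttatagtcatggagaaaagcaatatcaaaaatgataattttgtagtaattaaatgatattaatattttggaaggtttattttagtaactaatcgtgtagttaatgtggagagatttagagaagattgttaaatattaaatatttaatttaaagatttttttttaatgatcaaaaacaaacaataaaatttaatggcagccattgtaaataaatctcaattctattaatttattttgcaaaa
AT1G01990: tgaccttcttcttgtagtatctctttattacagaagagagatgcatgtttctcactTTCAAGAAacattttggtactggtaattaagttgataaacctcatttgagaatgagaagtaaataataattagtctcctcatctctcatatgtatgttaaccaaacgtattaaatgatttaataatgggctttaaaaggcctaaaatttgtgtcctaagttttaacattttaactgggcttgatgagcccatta
The window of AT1G02660 holds ACGTG 5 times counting both strands, 4 of them within the 2 copies of CACGTG, which reads alike on both strands, that of AT1G02700 holds none of the letters searched, and that of AT1G01990 holds 1 heat shock element. A match is a description of the letters, not of binding.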

How the data were processed

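RNA of 12 libraries was measured, 3 per group. Raw counts per transcript were deposited by the authors; the submitters' processing notes list HTSeq and DESeq without versions. Both the aligner and the reference version were not given in the sources used here. Intron tables hold a scaled read signal, an intron-to-exon ratio per library, a ratio between groups and a p-value without adjustment, as the authors deposited them. In those deposited tables, 72 junction read columns name no sample and were not used.

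The lowest-numbered annotated transcript stood for each gene. All genes that passed filterByExpr (minimum count 10) were fitted with edgeR 4.0.16 (quasi-likelihood test, TMM, 4 group means, 5 contrasts, Benjamini-Hochberg adjustment) in R 4.3.3. Libraries held 7468922 to 10506481 counts, which limits low genes most. Named genes are CYP18-1, its flanking genes, up to 5 largest called rises and falls per contrast at 5 CPM or more, up to 3 per functional list by p between genotypes, and the most abundant of each list; exceptions are stated. Members and lists were chosen with earlier results of these data known. The fit was tested on simulated data. Alternatives were DESeq2 1.42.0, other scalings, no filter, other transcripts, 1 subtracted from each count, only the 2 groups compared, a replicate block and leaving out each library. Sequences and positions come from RefSeq TAIR10.1, matched by locus ID for all 188 members.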

Additional observations from a re-analysis of the deposited data

Results flagged for a closer look

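The change of CIPK9 with heat differed between the genotypes by 0.66 on the log2 scale (atcyp18-1 minus WT, edgeR quasi-likelihood adjusted p = 0.0432), in a test of that difference itself. The call was lost in 10 of the 12 fits without 1 library, with adjusted p between 0.0521 and 0.114, and also with no filter on low counts (0.0873) and with plain library sizes (0.0687).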

How the results depend on the processing

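Of 105 calls of named genes, 54 held in each of the 20 alternatives and 51 were lost in at least 1; 1 turned round, the change of TOC33 with heat in WT (0.18), which was -0.030 with plain library sizes. Between genotypes in heat, 29 members were called, 19 with no filter on low counts and 16 to 30 without 1 library. Over all genes, 1413 were called higher and 1468 lower of 17296, and with no filter 888 and 1258 of 23337. In the normal condition 27 members were called, 17 by DESeq2, 16 with no filter and 10 to 28 without 1 library. Over all genes, 1937 were called higher and 2110 lower of 17296. By DESeq2 these were 1654 and 1557 of 23337, and with no filter 1515 and 1657 of 23337. The fits without 1 library that called fewest members also called fewer of all genes, as given above. For the difference in heat response, 1 member was called, 4 by DESeq2, 0 with no filter, 0 with plain library sizes and 0 to 2 without 1 library. Calls over all genes in these other fits were not counted for that test. With no filter more genes entered both the fit and the adjustment. Why the counts differed between fits was not tested. Members with a splicing event in the authors' deposited tables between genotypes were 3 in heat, 1 at their p under 0.01, and 2 in the normal condition, 0 at that p. Deviations of same-numbered libraries from their group means had correlations of -0.0864 to 0.105, with 1 of 18 pairs over 0.1. Libraries of different number were not compared in this way, so whether the numbers pair libraries cannot be told. With a replicate block, 32 members were called between genotypes in heat and 31 in the normal condition. Over all tested genes, 1550 were then called higher and 1562 lower in heat, and 2072 and 2227 in the normal condition. Between heat and normal, the block gave 59 members in atcyp18-1 and 60 in WT, and it gave 2 for the difference in heat response. Calls over all genes were not counted for these. Depth limits members of low count, of which 46 were not tested.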
